A study of Mus musculus with 6 samples.

Results

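Potassium and calcium channel genes, which encode the pore-forming and accessory subunits of the ion channels that set membrane voltage and admit calcium, were followed through the CpG methylation of mouse B cells with and without Tet2. The set held every protein-coding gene whose symbol begins with Kcn or Cacn, apart from the imprinted Kcnq1 and Kcnk9. It came to 118 of 21887 protein-coding genes, and 115 of them had a measured cytosine within the gene or 2 kb of its ends. No cytosine was measured in Kcne2, Kcnj16 or Kcnrg. Together these genes held 12709 of the 1457048 CpG cytosines that were covered by at least 10 reads in all 6 libraries. The symbols reach beyond voltage-gated channels, since they also take in leak channels, inward rectifiers and calcium-activated channels.

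The cells were splenic B cells labelled naive, from C57BL/6 mice carrying either a Tet2 knockout (KO, 3 libraries) or wild-type Tet2 (WT, 3 libraries). The sources used here do not give the kind of Tet2 allele, any Cre driver, the age of the mice or whether each library came from its own mouse. Methylation was read by enhanced reduced representation bisulfite sequencing (ERRBS), which sequences restriction fragments rich in CpG and reads unmethylated cytosine as T. 5-methylcytosine and 5-hydroxymethylcytosine both remain C in this assay, so every methylation level below is their sum. The series' design text speaks of germinal centre cells, whereas its title and all 6 sample labels say naive, and the labels were followed.

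TET2 oxidises 5-methylcytosine to 5-hydroxymethylcytosine and further products, a step towards demethylation. CpG-rich gene starts are unmethylated in most tissues whether or not the gene is used, while gene interiors are usually methylated. In lymphocytes the voltage-gated channel Kv1.3, encoded by Kcna3, and the calcium-activated channel KCa3.1, encoded by Kcnn4, carry potassium out of the cell and thereby keep up the driving force for calcium entry, whereas most other members are known mainly from neurons, muscle and endocrine cells.

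The libraries listed 1551481 to 1626375 cytosines each, at a median coverage of 92 to 110 reads per cytosine. Across Tet2 with 2 kb on each side, 6 cytosines between positions 133486189 and 133486297 of chromosome 3 were listed in every WT library and in no KO library, and no cytosine showed the opposite pattern. Gene-end windows of B cell marker genes were mostly unmethylated, with a median over 9 windows of 1.26%, and those of T cell markers were mostly methylated, with a median over 5 windows of 91.0%. The end window of Cd79a, part of the B cell receptor, stood at 0.24 ± 0.16% in KO and 0.15 ± 0.06% in WT libraries (SD, n = 3 each). The single myeloid window stood at 94.8%, and the 5 windows of neural marker genes had a median of 18.8%.

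Most measured channel gene starts were nearly unmethylated and a few were methylated, and the 300-base sequences of 5 starts are printed to show both, with CpG-poor starts on either side. They run 5′ to 3′ along the gene's strand, from 250 bases before to 50 after an annotated start, are taken from RefSeq on GRCm38.p6, and have each CpG in capitals. Kcna3 (chr3:107035912-107036211, plus strand) and Kcnn4 (chr7:24370013-24370312, plus strand) stand for the lymphocyte channels. Kcnip3, which encodes a calcium-binding Kv channel interacting protein also known as a transcriptional repressor, is shown with its inner start (chr2:127482450-127482749, minus strand) and its outermost start (chr2:127522045-127522344, minus strand). Kcnk18 (chr19:59219398-59219697, plus strand), a 2-pore potassium channel of sensory neurons, is a methylated start. Kcnip3 and Kcnk18 were picked after their values were seen.
Kcna3 start: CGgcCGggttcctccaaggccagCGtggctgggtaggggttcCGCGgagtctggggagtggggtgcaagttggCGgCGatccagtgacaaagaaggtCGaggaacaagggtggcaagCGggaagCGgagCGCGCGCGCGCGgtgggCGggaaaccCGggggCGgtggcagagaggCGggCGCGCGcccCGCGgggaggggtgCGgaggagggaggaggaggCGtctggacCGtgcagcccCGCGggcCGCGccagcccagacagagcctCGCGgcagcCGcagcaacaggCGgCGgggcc
Kcnn4 start: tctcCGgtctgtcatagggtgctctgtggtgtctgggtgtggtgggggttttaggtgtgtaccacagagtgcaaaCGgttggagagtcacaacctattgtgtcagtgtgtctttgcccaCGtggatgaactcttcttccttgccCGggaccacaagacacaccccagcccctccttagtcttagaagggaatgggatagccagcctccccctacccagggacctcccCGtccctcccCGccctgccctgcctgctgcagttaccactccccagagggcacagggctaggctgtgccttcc
Kcnip3 inner start: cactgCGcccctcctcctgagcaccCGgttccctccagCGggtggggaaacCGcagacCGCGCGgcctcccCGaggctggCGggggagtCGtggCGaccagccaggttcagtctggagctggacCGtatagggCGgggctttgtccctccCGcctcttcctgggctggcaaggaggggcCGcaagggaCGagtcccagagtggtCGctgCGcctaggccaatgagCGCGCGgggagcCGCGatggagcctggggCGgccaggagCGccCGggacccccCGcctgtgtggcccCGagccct
Kcnip3 outermost start: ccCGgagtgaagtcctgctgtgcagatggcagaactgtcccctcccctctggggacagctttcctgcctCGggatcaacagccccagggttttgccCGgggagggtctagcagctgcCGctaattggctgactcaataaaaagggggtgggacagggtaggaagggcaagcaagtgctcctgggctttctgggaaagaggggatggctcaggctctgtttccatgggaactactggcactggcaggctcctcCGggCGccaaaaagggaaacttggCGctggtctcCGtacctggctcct
Kcnk18 start: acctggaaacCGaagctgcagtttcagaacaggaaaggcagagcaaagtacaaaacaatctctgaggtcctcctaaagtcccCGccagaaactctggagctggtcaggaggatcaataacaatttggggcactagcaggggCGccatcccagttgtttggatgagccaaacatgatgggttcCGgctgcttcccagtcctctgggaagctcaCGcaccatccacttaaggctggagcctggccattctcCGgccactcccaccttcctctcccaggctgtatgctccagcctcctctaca

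The Kcna3 sequence holds 37 CpG sites, each with a cytosine on both strands, and the 30 cytosines measured there stood at 1.06, 0.0934 and 0.0243% in the KO libraries and 0.109, 0.258 and 0.0499% in the WT libraries. The KO and WT libraries overlapped, and the first KO library was the highest of the 6. The Kcnn4 sequence holds only 6 CpG sites and was still nearly unmethylated, its 3 measured cytosines standing at 4.37, 2.43 and 1.71% in KO libraries against 1.17, 0.188 and 2.15% in WT libraries, again with overlap. Kcnk18 has the same number of CpG sites as Kcnn4 and stood at 89.0 ± 2.83% in KO and 88.5 ± 2.15% in WT libraries over 4 cytosines (SD, n = 3 each). CpG count and methylation were thus not tied one to one among these starts.

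The 2 measured starts of Kcnip3 sat at opposite ends of the scale. Its inner start, with 28 CpG sites, stood at 0.251 ± 0.278% in KO and 0.634 ± 0.582% in WT libraries over 20 measured cytosines. Its outermost start, with 8 CpG sites, stood at 80.4 ± 1.35% in KO and 79.1 ± 3.36% in WT libraries over 7 measured cytosines (SD, n = 3 each). The difference between these starts was far larger than any difference between the genotypes at either of them.

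RefSeq promoter sequences matched 89 of the 118 genes, with 123 starts. Of these starts, 58 had at least 3 measured cytosines, and 53 of the 58 were methylated below 10%, or 91.4%, beside 94.4% of the 9695 such starts of all protein-coding genes. Every measured cytosine in the 123 sequences, 1163 in all, fell on a CpG of the printed strand or its complement. Among starts with more than 15 CpG sites, 43 of 44 channel starts were below 10%, beside 98.2% over all genes. Among those with 6 to 15 CpG sites, 10 of 13 were below 10%, beside 79.2% over all genes. The 4 starts at 70% or above were the outermost start of Kcnip3 and those of Kcnk18, Kcne4, which encodes a small Kv accessory subunit, and the inward rectifier Kcnj12. Kcne4 stood at 71.2 ± 7.14% in KO and 73.0 ± 4.74% in WT libraries, and Kcnj12 at 91.1 ± 3.11% in KO and 91.3 ± 3.02% in WT libraries (SD, n = 3 each).

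**Figure D1:**
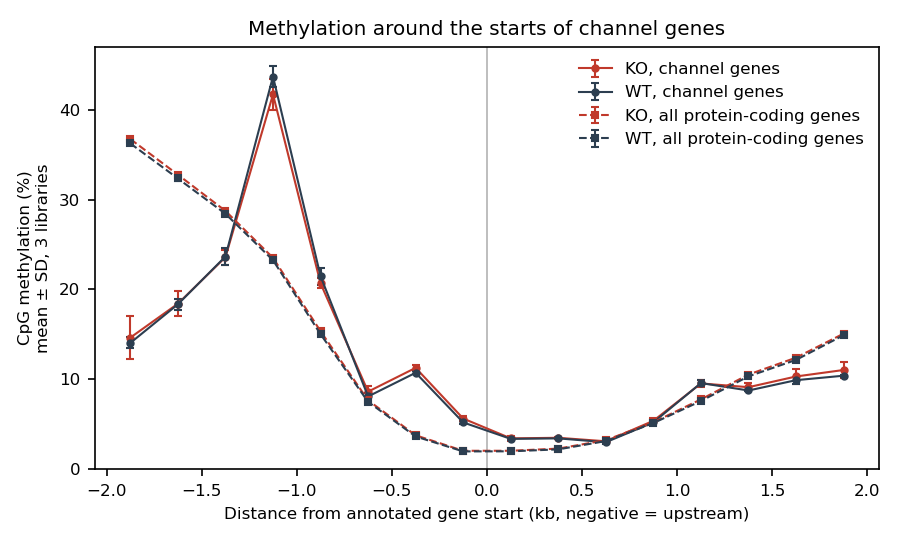
CpG methylation (%, y axis, mean ± SD of the 3 libraries of a genotype, each cytosine weighted equally) in 250-base bins against the distance from the annotated gene start (kb, x axis), for KO (red) and WT (dark blue) over channel genes (solid, circles) and all protein-coding genes (dashed, squares). The genotypes lie close together in every bin, and the channel genes stand at 3.42% in KO and 3.36% in WT libraries just downstream of the start.

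Around the annotated start of the channel genes with known strand, 73 of which contributed cytosines, methylation in the first 250 bases downstream averaged 3.42 ± 0.25% in KO and 3.36 ± 0.08% in WT libraries over 764 cytosines. Over all protein-coding genes the same bin stood at 2.04 ± 0.04% in KO and 1.98 ± 0.01% in WT libraries (SD, n = 3 each). Upstream, the channel profile reached 41.7 ± 1.69% in KO and 43.7 ± 1.15% in WT libraries between 1 and 1.25 kb before the start, but that bin held only 20 cytosines. Nearer the start, in the second bin of 250 bases upstream, the channel genes stood at 11.3 ± 0.32% in KO and 10.7 ± 0.16% in WT libraries over 156 cytosines, beside 3.76 ± 0.06% in KO and 3.63 ± 0.04% in WT libraries over all genes.

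Windows of 2 kb on each side of a gene end were then read for each family, as start or stop where the strand was known. Over all members, 50 of 70 start windows were below 10%, with a median of 4.08%, while 4 of 34 stop windows were below 10%, with a median of 89.9%. Interiors, the gene without 2 kb at each end, had a median of 80.6% and spanned 5.56 to 96.3%. The median of the start windows was low, 1.82 to 5.17%, in every family except the Kv partners. These accessory subunits of voltage-gated potassium channels (Kcnab, Kcne, Kcnip) had 1 of 9 start windows below 10%, with a median of 26.7%. These windows sit at the outermost gene ends and need not speak for every start of a gene. Among Kv partner starts with promoter sequence and at least 3 measured cytosines, only Kcne4 (72.1%) and the outermost Kcnip3 start (79.7%) exceeded 10%. The inner Kcnip3 start stood at 0.44%, and starts of Kcnab2, Kcne3, Kcnip1, Kcnip2 and Kcnip4 at 0.02, 1.48, 1.56, 1.94 and 4.75% (means of 6 libraries). Kv pore subunits, which form the voltage-gated potassium channels themselves, had 20 of 22 start windows below 10% and a median of 3.49%, and all 4 start windows of the Cav pore subunits, the voltage-gated calcium channels, were below 10%.

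**Figure D2:**
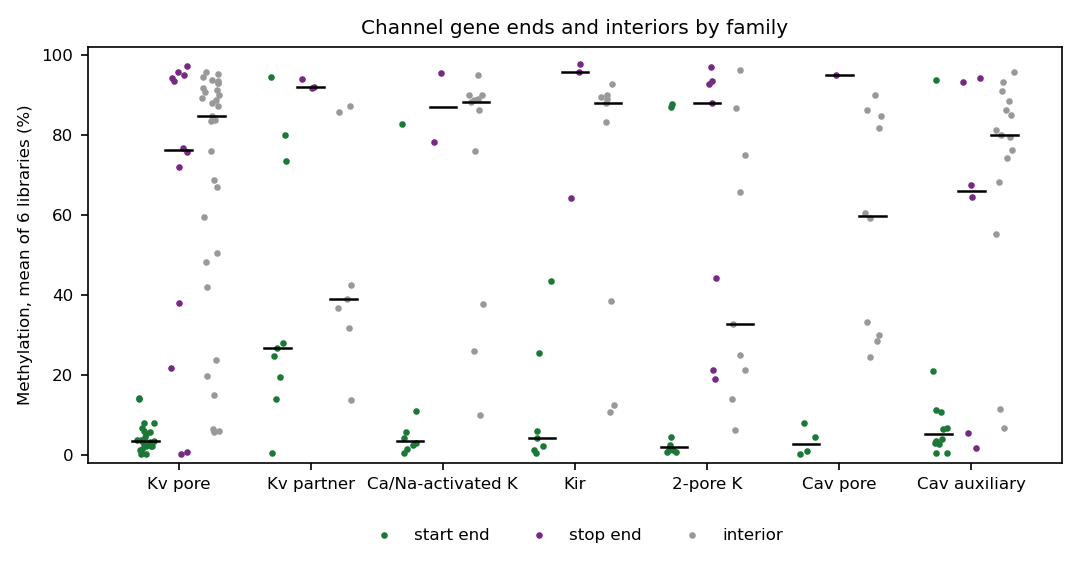
Methylation of channel gene features (%, y axis, mean of the 6 libraries) by channel family (x axis), with 1 point per start window (green), stop window (purple) or interior (grey) and a bar at the median. The median start window lies near the bottom in every family but the Kv partners, where it is 26.7%, and interiors run from 5.56 to 96.3%.

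The extremes within families, taken over windows with at least 10 cytosines, came from named genes on both sides. The lowest Kv pore window was the start of Kcna3, at 0.56, 0.15 and 0.15% in KO libraries against 0.15, 0.12 and 0.10% in WT libraries over 90 cytosines. All 3 KO values lay above the WT values, though only the first KO library did so clearly. The pooled difference was 0.16 points (adjusted p = 0.866, quasi-binomial model with moderated overdispersion), 0.0279 points without the first KO library and 0.314 points with equal weights. At the other end stood the upper window of Kcnh3, whose strand was not assigned, at 95.5 ± 1.26% in KO and 95.2 ± 2.99% in WT libraries. Kcnk12, a 2-pore channel, had the lowest window of its family at 0.745 ± 0.082% in KO and 0.762 ± 0.113% in WT libraries, and Kcnmb4, an accessory subunit of the large-conductance calcium-activated channel, the lowest of its own at 0.468 ± 0.110% in KO and 0.430 ± 0.042% in WT libraries. The window at the outermost start of Kcnip1, a Kv channel interacting protein, was the highest of the Kv partners. It stood at 93.4 ± 1.76% in KO and 95.3 ± 0.80% in WT libraries (SD, n = 3 each). This window held 12 cytosines, none of them shared with another channel gene. A further 12 cytosines, in the Kcnip1 interior, are shared with Kcnmb1, so the genes cannot be told apart there.

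The X-linked accessory gene Kcne1l had a start window of intermediate level, 18.5 ± 2.96% in KO and 20.5 ± 4.19% in WT libraries over 25 cytosines. The groups overlapped, as they did at the start windows of Kcne4 (75.4 ± 7.37% in KO, 71.7 ± 3.93% in WT) and Kcnk18 (86.4 ± 2.01% in KO, 87.5 ± 0.93% in WT; SD, n = 3 each).

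Whether loss of Tet2 altered methylation at these genes was tested in all protein-coding gene ends, all interiors, all 1 kb tiles and all cytosines, with p-values adjusted over each whole class by the Benjamini-Hochberg method. Calling a feature took both an adjusted p under 0.05 and 10 or more percentage points between the pooled levels. No channel gene end was called, 0 of 137 windows, and 0% of all 20950 windows were called either. At an unadjusted p under 0.05, 5 member windows were higher in KO, beside 4.94% of all windows, and 1 was lower, beside 0.783%. On the same windows edgeR gave 2 and 0, beside 4.22 and 1.02% of all windows, and limma 3 and 0, beside 4.66 and 1.09%. Neither called a member. In 11 windows every KO library exceeded every WT library, beside 8.36% of all windows, and in 4 all lay below, beside 2.25%. The pooled difference was above 0 in 87 of 137 windows, beside 64.9% of all windows, with a median of 0.249 points for members and 0.0856 for all windows.

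The member windows with the smallest p were a mixed group. The stop window of Kcnc1, a Kv pore subunit of fast-spiking neurons, read 96.9, 96.2 and 98.6% in KO libraries against 88.3, 91.2 and 89.4% in WT libraries, over 3 cytosines. The groups did not overlap, and the difference was 7.30 points (adjusted p = 0.722, quasi-binomial model). The stop window of Cacng7, an accessory subunit related to regulators of AMPA receptors, read 6.37, 5.60 and 6.83% in KO libraries against 5.10, 4.46 and 4.69% in WT libraries over 42 cytosines, a separation of 1.61 points. With windows of 1 kb the difference was -1.58 points, but these leave out the 35 cytosines between positions 3366696 and 3366900. Kcnk15, a 2-pore channel gene, differed by 2.87 points at its stop window, the calcium channel of skeletal muscle Cacna1s by 1.40 points at its start window, and the modulatory Kv subunit Kcns1 by 2.0 points at its stop window, each without overlap. With equal weights the Kcnk15 difference was 0.844 points, and with 1 kb ends the Kcns1 difference was 3.22 points.

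On the lower side stood the stop window of Kcnk16, a 2-pore channel of the pancreas, at 84.7, 88.0 and 85.9% in KO libraries against 90.6, 90.8 and 88.7% in WT libraries. Every KO value was below every WT value, and the difference was -3.68 points (adjusted p = 0.862, quasi-binomial model), or -2.18 points with equal weights. The stop window of Kcna7, a muscle Kv subunit, had a difference of -5.60 points and the start window of Kcnmb2, a subunit of the large-conductance calcium-activated channel, one of -3.94 points, both with overlapping libraries. The Kcna7 value was -0.768 points with equal weights, and the Kcnmb2 value -0.273 points with 1 kb ends. The start window of Kcnn4, resting on 3 cytosines, read 5.24, 3.70 and 1.42% in KO libraries against 0.733, 0.418 and 2.93% in WT libraries, with overlap (adjusted p = 0.894, quasi-binomial model), and its difference of 2.30 points was 1.13 points without the first KO library. The stop window of Kcna3 overlapped too, at 0.828 ± 0.217% in KO and 0.418 ± 0.448% in WT libraries (SD, n = 3 each).

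Interiors carried the larger pooled differences. No member interior was called, 0 of 92, beside 0% of all 9691 interiors. At an unadjusted p under 0.05, 18 were higher in KO, beside 13.3% of all interiors, and 0 were lower, beside 0.65%. Here edgeR gave 13 and 0, beside 11.8 and 0.815% of all interiors, and limma 11 and 0, beside 9.78 and 1.22%. In 21 interiors the KO libraries all lay above the WT libraries, beside 16.9% of all interiors, and in 1 they all lay below, beside 2.37%. The pooled difference was above 0 in 73 of 92, beside 72.1% of all interiors, with a median of 1.14 points for members and 0.787 for all interiors.

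How reads were weighted moved these interior values. Averaged with equal weight per cytosine, the 6172 interior cytosines of channel genes stood at 52.7 ± 0.353% in KO and 52.5 ± 0.182% in WT libraries, a difference of 0.248 points. With reads pooled the same cytosines stood at 46.3 ± 1.05% in KO and 40.7 ± 2.96% in WT libraries, a difference of 5.57 points (SD, n = 3 each). Cytosines methylated below 10% took 43.9 ± 0.746% of the interior reads in KO and 49.5 ± 3.01% in WT libraries, and over the interiors of all genes 37.9 ± 1.38% in KO and 43.6 ± 2.87% in WT libraries. With equal weights, 7 member interiors were higher at an unadjusted p under 0.05, beside 10.5% of all interiors, and 1 was lower, beside 1.16%. The part that read distribution plays in the pooled differences was not tested.

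Of the 18 interiors, 13 had an equal-weight difference under 1 point, from -0.456 to 0.609, against pooled differences of 2.41 to 9.55 points. In all 13 the share of reads on cytosines below 10% was lower in KO than in WT libraries on average. Among them were Cacna1a, Cacna1c, Cacna1d and Cacna1e, which are pore subunits of voltage-gated calcium channels, with the calcium channel subunits Cacna2d3 and Cacnb1, the Kv channel interacting proteins Kcnip1 and Kcnip3, and the 2-pore channels Kcnk1, Kcnk2, Kcnk10 and Kcnk13. The other 5 had equal-weight differences of 1.75 to 6.66 points, all at an unadjusted p under 0.05, and were Kcnh3, Cacnb4, Kcnj12, Kcnh7 and Kcnj1.

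**Figure D3:**
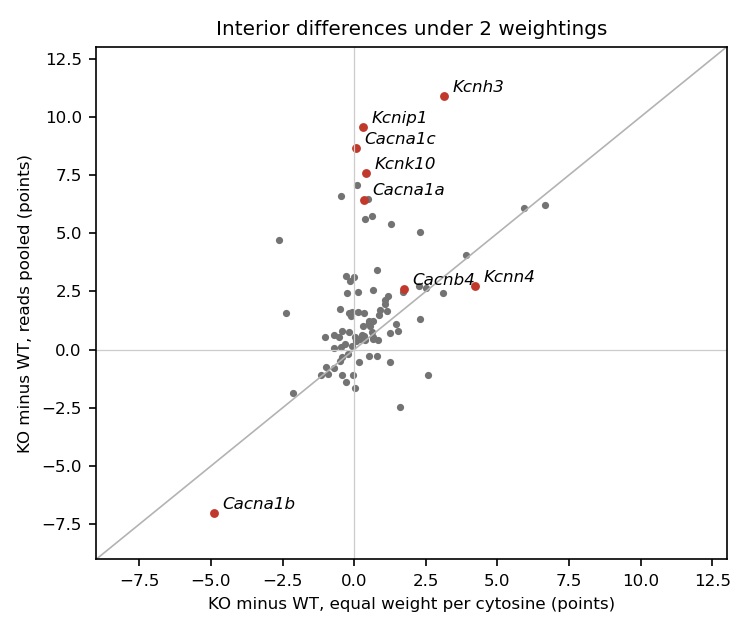
Difference in interior methylation, KO minus WT in percentage points, for the 92 channel gene interiors, with reads pooled (y axis) against equal weight per cytosine (x axis). Points on the grey diagonal have the same difference under both; Kcnip1, Cacna1c, Kcnk10 and Cacna1a (red, labelled with 4 other genes) stand near 0 on the x axis at pooled differences of 6.45 to 9.55 points.

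Cacna1c and Cacna1a, the pore subunits of the L-type channel of heart and brain and of the P/Q-type channel of nerve terminals, were the members with most measured cytosines, 460 and 471. The Cacna1c interior read 32.7, 33.2 and 31.9% in KO libraries against 18.5, 24.2 and 29.7% in WT libraries. The groups did not overlap, and the spread was wider in WT. The difference was 8.64 points (adjusted p = 0.194, quasi-binomial model), with equal weights the genotypes stood at 40.9% in KO and 40.8% in WT libraries, and reads on cytosines below 10% made up 64.2 ± 0.766% in KO and 73.4 ± 6.54% in WT libraries. Without the third WT library the pooled difference was 11.2 points and passed both thresholds (adjusted p = 0.0421, quasi-binomial model). Under that setting 49 of all 9691 interiors passed, beside 0 with all 6 libraries. Without the first WT library the Cacna1c difference was 5.90 points (adjusted p = 0.184, quasi-binomial model). The Cacna1a interior read 35.0, 32.8 and 32.1% in KO libraries against 24.96, 26.6 and 28.9% in WT libraries, a separation of 6.45 points (adjusted p = 0.114, quasi-binomial model), and 0.343 points with equal weights. Cacna2d2, an extracellular calcium channel subunit and the next in number with 356 cytosines, stood at 68.9 ± 1.28% in KO and 67.6 ± 1.14% in WT libraries in its interior (SD, n = 3 each), with overlap.

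The 2-pore channel genes Kcnk10 and Kcnk2, which encode mechanosensitive leak channels, gave like values. The Kcnk10 interior read 16.7, 20.1 and 16.2% in KO libraries against 7.88, 9.08 and 13.3% in WT libraries, with no overlap and a pooled difference of 7.58 points. The Kcnk2 interior read 35.3, 35.8 and 35.4% in KO libraries against 26.6, 31.8 and 31.0% in WT libraries, with no overlap and a pooled difference of 5.72 points. With equal weights the difference was 0.422 points for Kcnk10 and 0.609 points for Kcnk2.

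Kcnh3, a Kv pore subunit of the ether-à-go-go group found mainly in the forebrain, had the largest pooled difference among the member interiors. Its 28 interior cytosines read 53.2, 52.6 and 55.0% in KO libraries against 42.5, 41.6 and 44.4% in WT libraries. The groups did not overlap, and the difference was 10.9 points. It did not pass the adjusted threshold (adjusted p = 0.0877, quasi-binomial model), but did so without the third WT library, at 11.6 points (adjusted p = 0.0319). Leaving out that library called 49 of all 9691 interiors. With equal weights the interior stood at 64.6% in KO and 61.3% in WT libraries as plain means of the libraries. The fitted equal-weight difference, which weights libraries by their reads, was 3.13 points. Reads on cytosines below 10% made up 44.7 ± 1.83% in KO and 52.5 ± 2.89% in WT libraries.

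Some interiors stood lower in KO. Cacna1b, the pore subunit of the N-type calcium channel of nerve terminals, read 63.0, 58.0 and 50.7% in KO libraries against 59.6, 63.0 and 68.2% in WT libraries, with overlap. Its difference was -7.01 points (adjusted p = 0.403, quasi-binomial model), -4.90 points with equal weights and -3.31 points without the third KO library. Kcnab2, a Kv beta subunit, and Kcng3, a silent Kv subunit, had pooled differences of -1.65 and -1.08 points with overlapping libraries. The Kcnab2 value was 0.02 points with equal weights and -0.582 points without the first KO library. The Kcng3 value was 4.13 points with 1 kb ends and -0.455 points without the first WT library.

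The Kcnn4 interior, 59 cytosines, read 76.1, 76.5 and 79.2% in KO libraries against 70.9, 77.1 and 76.6% in WT libraries. The groups overlapped, and the difference was 2.74 points (adjusted p = 0.598, quasi-binomial model), 4.23 points with equal weights, 0.526 points without the first WT library and 1.68 points without the third KO library. Kcna3 is too short a gene, at 1.97 kb, to have an interior under this definition.

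Tiles of 1 kb reuse the cytosines of windows and interiors, so the scales are not independent. At this finer scale, no member tile was called, 0 of 852, beside 0.112% of all 108943 tiles. At an unadjusted p under 0.05, 56 were higher in KO, beside 5.73% of all tiles, and 16 lower, beside 1.46%. Here edgeR gave 26 and 11, beside 4.17 and 1.42% of all tiles, and limma 32 and 12, beside 5.06 and 1.51%. In 66 tiles every KO library exceeded every WT library, beside 8.34% of all tiles, and in 36 all lay below, beside 3.36%. At an adjusted p under 0.05 whatever the size, 1 member tile passed, beside 0.129% of all tiles. The pooled difference was above 0 in 476 of 852 tiles, beside 59.7% of all tiles.

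That tile lay inside Kcnh3, at chr15:99233001-99234000, 8.48 kb above the lower end of the gene at position 99224517. Its 9 cytosines, 3 on the upper and 6 on the lower strand, fell within 116 bases. They read 7.60, 3.56 and 9.42% in KO libraries against 1.01, 1.76 and 1.41% in WT libraries. Summed over the 9 cytosines, a library held 1369 to 2668 readings, with 141 to 318 reads at each cytosine. A read that spans several cytosines counts at each of them. The Wilson 95% interval of the lowest KO library, 2.80 to 4.51%, lay above that of the highest WT library, 1.33 to 2.33%. These intervals cover counting error only. They take all readings as independent, which cytosines on the same read are not, so they may be too narrow even for that error. The pooled difference was 5.40 points (adjusted p = 0.0204, quasi-binomial model), or 5.56 points with equal weights. The cytosines of the tile are part of the Kcnh3 interior, so tile and interior are not separate results.

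All 9 cytosines of the Kcnh3 tile stood higher in KO, by 3.58 to 7.997 points, and at 5 of them every KO library exceeded every WT library. The remaining 4 overlapped through the second KO library, which for example read 0.948% at position 99233977 beside 3.47 and 11.96% in the other KO libraries and 1.33, 2.45 and 1.56% in the WT libraries. The adjusted p of the tile ranged from 0.00518 without the second KO library to 0.122 without the first WT library, and it stood at 0.0602 without the first KO, 0.0962 without the third KO and 0.0626 without the third WT library. Under edgeR it was 0.884, under limma 0.704 and without moderation of the overdispersion 0.904. Each of these settings called 0 of all 108943 tiles, beside 122 with the moderated quasi-binomial model.

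The tile stood out from its surroundings. Its nearest neighbour below read 90.1 ± 4.001% in KO and 87.3 ± 3.89% in WT libraries, and the tiles at the upper end of Kcnh3 read above 93% in both genotypes. The 3 tiles at the lower end were at 0.777 to 9.06% in KO and 0.868 to 8.81% in WT libraries (means of 3 libraries), all with overlap. Exons and regulatory annotation of the tile were not analysed here.

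**Figure D4:**
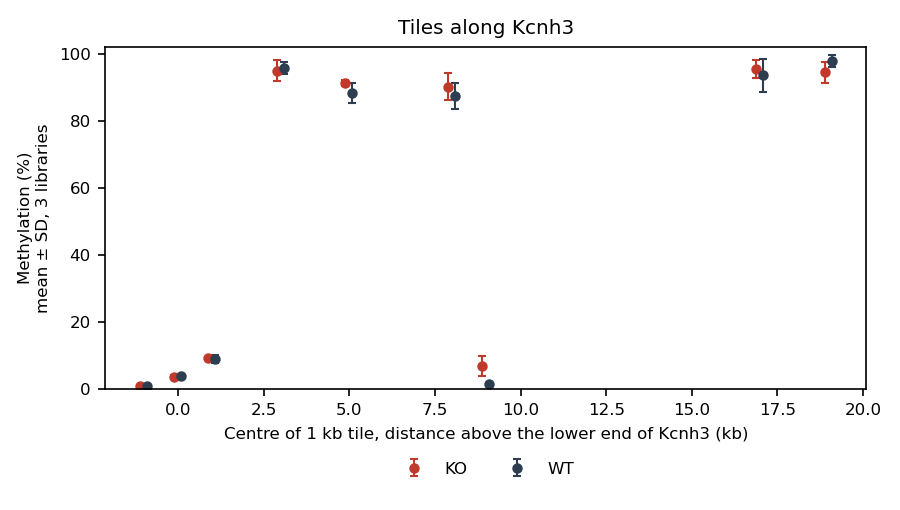
Methylation of the measured 1 kb tiles along Kcnh3 (%, y axis, mean ± SD of the 3 libraries of a genotype) against the distance of the tile centre above the lower end of the gene (kb, x axis), for KO (red) and WT (dark blue), offset sideways for legibility. A single tile near 9 kb is almost unmethylated between methylated neighbours, at 6.86% in KO and 1.39% in WT libraries.

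The other tiles with the smallest p and a higher value in KO lay in both kinds of channel gene. A tile of Cacnb4, the beta subunit of neuronal calcium channels, at chr2:52494001-52495000, read 89.3, 93.8 and 90.4% in KO libraries against 77.3, 77.6 and 79.0% in WT libraries over 6 cytosines. The groups did not overlap, and the difference was 13.2 points (adjusted p = 0.176, quasi-binomial model). Most of it came from single cytosines, whose differences ran from -0.995 to 41.3 points. A tile of Kcnj12 at chr11:61059001-61060000 read 79.2, 82.4 and 81.2% in KO libraries against 63.1, 69.1 and 48.6% in WT libraries over 3 cytosines, with no overlap and a difference of 19.5 points (adjusted p = 0.227, quasi-binomial model).

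Differences at the other named tiles were smaller. A tile near the upper end of Cacng7, at chr7:3366001-3367000, read 7.37, 5.94 and 7.88% in KO libraries against 4.91, 4.48 and 5.01% in WT libraries, and one at the upper end of Kcnj11, the pore subunit of the ATP-sensitive potassium channel of beta cells, at chr7:46100001-46101000, read 12.5, 10.2 and 12.1% in KO libraries against 7.71, 9.33 and 7.85% in WT libraries. Neither pair of groups overlapped, with differences of 2.36 points at Cacng7 and 3.22 points at Kcnj11, the second of which was 1.61 points with equal weights. The Kcnn4 tile at chr7:24377001-24378000, which holds 47 of its interior cytosines, read 85.8, 83.9 and 85.1% in KO libraries against 76.2, 81.9 and 82.6% in WT libraries, without overlap, a difference of 4.93 points (adjusted p = 0.317, quasi-binomial model) that was 2.69 points without the first WT library.

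The lower side was led by Cacna1b. Its tile at chr2:24679001-24680000, some 75.1 kb above the lower end of the gene, read 29.5, 19.6 and 19.995% in KO libraries against 27.3, 36.8 and 38.2% in WT libraries over 30 cytosines within 273 bases. The groups overlapped through the first KO and the first WT library. The difference was -11.9 points (adjusted p = 0.100, quasi-binomial model), and 28 of the 30 cytosines stood lower in KO. All 30 belong to the Cacna1b interior, which holds 70 cytosines. The tile passed both thresholds without the first KO library, at -14.4 points (adjusted p = 0.0205, quasi-binomial model). It also passed without the first WT library, at -15.0 points (adjusted p = 0.0282, quasi-binomial model). Of all 108943 tiles, 89 and 52 were called under these settings, beside 122 with all 6 libraries.

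A tile of Cacnb3, a calcium channel beta subunit also studied in T cells, at chr15:98630001-98631000, read 53.5, 49.8 and 39.3% in KO libraries against 55.1, 61.1 and 57.5% in WT libraries over 8 cytosines. No libraries overlapped, and the difference was -10.3 points (adjusted p = 0.487, quasi-binomial model), or -6.31 points without the third KO library. A tile at the upper end of Cacng2, which encodes the AMPA receptor regulator stargazin, at chr15:78120001-78121000, read 4.44, 2.999 and 2.42% in KO libraries against 5.59, 7.15 and 4.42% in WT libraries. The groups overlapped by a narrow margin, with a difference of -2.68 points, and a long non-coding RNA gene overlaps the same tile.

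**Figure D5:**
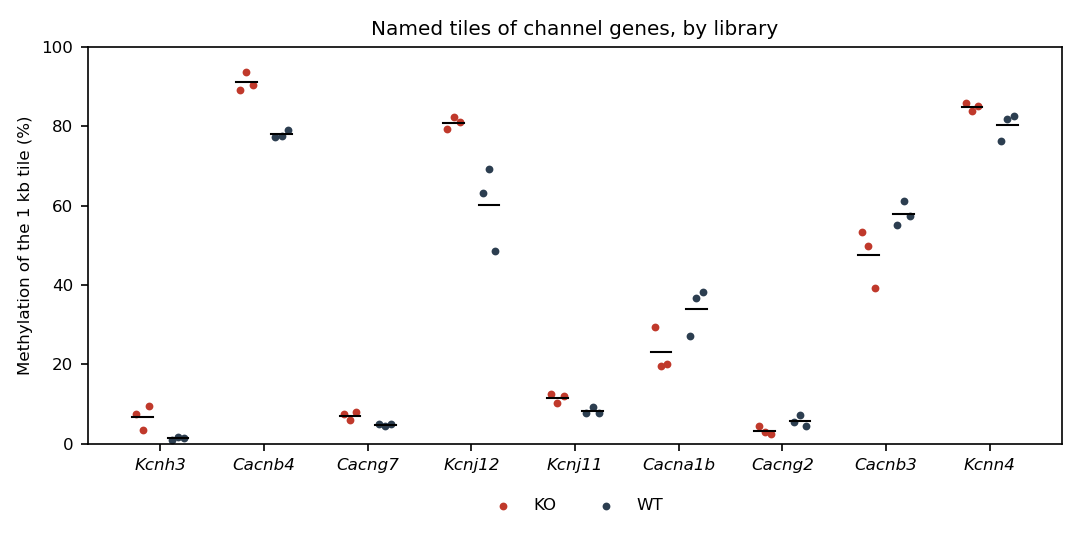
Methylation of the named 1 kb tiles (%, y axis), 1 point per library and a bar at the mean, with KO (red) left of WT (dark blue) for each gene (x axis). KO points lie above all WT points for Kcnh3, Cacnb4, Cacng7, Kcnj12, Kcnj11 and Kcnn4, below them for Cacnb3, and overlap them for Cacna1b and Cacng2.

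No single channel cytosine was called, 0 of 12709, beside 0.000343% of all 1457048 cytosines. At an unadjusted p under 0.05, 575 were higher in KO, beside 3.99% of all cytosines, and 476 lower, beside 2.38%. Every KO library exceeded every WT library at 418 of them, beside 2.97% of all cytosines, and stayed below at 477, beside 2.25%. The pooled difference was above 0 at 5634 of them, beside 39.1% of all cytosines. Sorted by their mean over the 6 libraries, the 581 channel cytosines at 30 to 70% averaged 51.3 ± 1.27% in KO and 50.1 ± 1.57% in WT libraries, a difference of 1.27 points, beside 2.72 points for all cytosines in that class. The 655 channel cytosines at 10 to 30% averaged 17.2 ± 1.19% in KO and 17.1 ± 0.315% in WT libraries, a difference of 0.0650 points beside 1.43 points for all. At 70 to 90% the difference was 0.752 points for the 1061 channel cytosines and 1.29 points for all. These values describe the channel set beside the whole and were not tested against it.

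Weighted equally, the 6549 end cytosines of channel genes averaged 10.3, 9.95 and 9.90% in KO libraries against 9.81, 9.79 and 9.88% in WT libraries. The groups did not overlap, but only narrowly, the third KO library standing at 9.899% and the third WT library at 9.885%. The group means differed by 0.202 points, beside 0.148 points over the ends of all genes. With reads pooled the ends differed by 0.737 points in channel genes and 0.862 in all genes.

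Other ion transport genes known from lymphocytes, from store-operated calcium entry to calcium pumps, were read from the same fits. All 24 entries matched a gene. None of their 27 end windows or 23 interiors was called, and at an unadjusted p under 0.05, 1 window was higher, beside 4.94% of all windows, 2 interiors were higher, beside 13.3% of all interiors, and 1 interior was lower, beside 0.65%. These lists were not tested against the channel genes. The difference was above 0 in 18 of 27 windows, beside 64.9% of all windows, and in 18 of 23 interiors, beside 72.1% of all interiors. The medians were 0.198 points in windows and 0.604 in interiors, beside 0.0856 and 0.787 points over all genes. Stim1, the calcium sensor of the endoplasmic reticulum, had the largest of these interior differences at an unadjusted p under 0.05, with 27.6, 34.5 and 29.9% in KO libraries against 18.3, 26.4 and 24.3% in WT libraries, and was named after its values were seen. Its groups did not overlap with reads pooled (8.01 points, adjusted p = 0.202, quasi-binomial model). A Stim1 value with equal weight per cytosine is not given here. Among 14 sodium channel genes, none of 15 windows or 12 interiors was called. At an unadjusted p under 0.05, 1 window was higher, beside 4.94% of all windows.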

How the data were processed

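ERRBS libraries of 3 KO and 3 WT samples were aligned with Bismark to GRCm38, per the submitters' processing notes, while version, trimming and duplicate removal are not stated there. Each deposited table gives, per CpG cytosine and strand, the coverage as a raw read count and the percent of reads with C and with T, per the file headers. Multiplying percent by coverage gave the reads with C and with T, whole numbers for 100% of values to the precision of the deposited percent, and 0.0178 to 0.0190% of reads carried another base. Replicate origin is not stated, so the spread behind each p-value is that of the 6 libraries and may be technical. The reads carry no molecular identifiers. Intervals cover counting error only and take cytosines on the same read as independent.

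Genes came from the RefSeq table of GRCm38.p6, and the strand of 89 of the 118 genes from its promoter sequences. A cytosine was used if every library covered it 10 times or more. Features were windows of 2 kb on each side of a gene end (at least 3 cytosines, each given to the nearer end), interiors (at least 5), 1 kb tiles (at least 3) and single cytosines. Differences, KO minus WT of pooled reads in percentage points, were compared by a quasi-binomial model of C and T counts, its overdispersion moderated with limma 3.58.1 in R 4.3.3 and held at 1 or above, with Benjamini-Hochberg adjustment over all features of a class. Values are mean ± SD over libraries. Differences with equal weight per cytosine, where given for single features, still weighted libraries by their reads. Scripts were tested on simulated data. Alternatives were edgeR 4.0.16, limma on log2((C + 2)/(T + 2)), no moderation, equal weight per cytosine, a coverage minimum of 20, a coverage limit at the 99.9th percentile, 1 kb ends, the replicate number as a block and each library left out, and, chosen after seeing the data, overdispersion trended on coverage.

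The genes and lists were chosen with earlier results of these data known. Named were, for windows, interiors and tiles, the 5 members with the smallest p that were higher in KO and the 3 that were lower, the 3 with most cytosines, the extreme windows of each family with at least 10 cytosines, and Kcna3 and Kcnn4. Not every gene so named is described, a result for 1 member is not reported here, and genes named otherwise were chosen after their values were seen.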

Additional observations from a re-analysis of the deposited data

How the results depend on the processing

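The counts of called windows (0) and cytosines (0) held under every alternative run. Called interiors ranged from 0 to 2 and called tiles from 0 to 1 with 1 library left out, and were 0 under all other settings. Kcnh3 (11.6 points) and Cacna1c (11.2 points) passed without the third WT library, where 49 of all 9691 interiors were called, beside 0 with all 6 libraries. The Cacna1b tile passed without the first KO (-14.4 points) or first WT library (-15.0 points). There 89 and 52 of all 108943 tiles were called, beside 122 with all 6 libraries. Of 421 values of 29 named features, 414 kept their direction and side and 3 reversed, none by leaving out a library: the Cacng7 window (-1.58 points) and the Kcng3 interior (4.13 points) with 1 kb ends, and the Kcnab2 interior (0.0181 points) with equal weights. With 1 kb ends the Cacng7 window and the Kcng3 interior held a different set of cytosines. Pooling reads moved the mean difference to 0.737 points at ends and 5.57 points in interiors; the cause was not tested.

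Counts at an unadjusted p under 0.05 moved more. Higher in KO, windows gave 2 under edgeR, 3 under limma, 8 without moderation and 12 with equal weights, against 5; interiors gave 10 without moderation, 11 under limma and 7 with equal weights, against 18; tiles gave 26 under edgeR, 32 under limma and 33 without moderation, against 56; cytosines gave 291 higher and 283 lower without moderation, against 575 and 476. With 1 library left out they ranged from 4 to 10 windows, 10 to 16 interiors and 35 to 54 tiles. Lower in KO, windows ranged from 0 to 3, interiors from 0 to 2 and tiles from 11 to 25.

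The replicate numbers were not taken as pairs, since same-numbered libraries deviated from their group means with correlations of 0.048, -0.029 and -0.007 over 29505 tiles. With the replicate number as a block, 0 windows, 0 interiors, 0 tiles and 0 cytosines were called, among members as over all features. Members higher in KO at an unadjusted p under 0.05 numbered 6, 13, 49 and 275. The shares over all features were 5.05, 12.4, 5.17 and 2.02%. The Kcnh3 tile, at an adjusted p of 0.0204 without the block, had 0.762 with it. Reads per cytosine and library were as few as 12 in the Cacnb4 tile, 13 in the Cacna1b tile and 17 in the Kcnj12 tile.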

Other observations

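Summed gene by gene, so that cytosines shared by Kcnip1 and Kcnmb1 count for each gene, 15738 channel gene entries were listed in any library. Of these, 9 were listed in all KO libraries and no WT library, and 7 in all WT libraries and no KO library. In the whole series these were 1761 and 643 of 1799219 cytosines.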
